A study of Mus musculus with 6 samples.

Results

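The 6 genes described here are genes of endoderm epithelium and basement membrane, Col4a1, Dab2, Krt18, Foxq1, Amn and Apoe, and they were compared, as part of the question whether the transcriptomes differ, between mouse embryonic stem cell (mESC) lines that express wild type or mutant SOX2, a transcription factor of pluripotent cells. The members were chosen by their measured difference between the lines. Each belongs to the 659 genes that the study lists as changed on these same arrays, out of 23949 probes in the deposited log2 table. The probe of each gene was found as the only one whose paired comparison of that table gave the listed p-value and fold change within 0.01%, and the list served only as a name key. The differences between the lines are therefore a description, and counts of members past a threshold are given only beside the same counts over all probes.

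Gene expression was measured in 3 cultures of fSOX2-Tg and 3 of fS248A-Tg mESCs, each hybridized to a single-color Agilent array. Both lines descend from 2TS22C mESCs, in which the endogenous Sox2 copies are deleted and an untagged SOX2 cDNA can be switched off with doxycycline. The fSOX2-Tg line carries FLAG-tagged wild type SOX2 and the fS248A-Tg line carries FLAG-tagged SOX2 with alanine in place of the serine that bears O-GlcNAc, both driven by the CAG promoter. All cultures were kept in serum and leukemia inhibitory factor with 1 µg/ml doxycycline, so that the tagged protein was the sole SOX2. The lines were expanded from drug-resistant colonies after transfection, and the number of clones behind each line is not given in the sources used here. The lines differ in their integration events as well as in the SOX2 allele, and with 1 line per allele these cannot be told apart.

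In the early embryo the inner cell mass gives rise to the epiblast, from which mESCs derive, and to the primitive endoderm, whose descendants form the visceral and parietal endoderm. Both layers lay down a basement membrane. The visceral endoderm is a polarized epithelium that takes up maternal nutrients by endocytosis and secretes apolipoproteins. GATA6 and GATA4 are transcription factors that drive the primitive endoderm fate, while SOX2 is a factor of the epiblast. Among the members, Col4a1 encodes a chain of type IV collagen, the scaffold of basement membranes. Dab2 encodes an endocytic adaptor that is needed to sort primitive endoderm cells to the surface. Amn encodes amnionless, which carries the receptor cubilin to the apical membrane of visceral endoderm. Krt18 encodes a keratin of simple epithelia, Foxq1 a forkhead transcription factor, and Apoe a secreted lipid carrier.

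Sequences upstream of these genes are shown because SOX2 is the factor altered between the lines, GATA factors mark the endoderm, and both kinds of factor bind short DNA motifs. The RefSeq promoter table of GRCm38.p6 held 8 start sites for 5 of the 6 members. For Foxq1 the table had no entry. In the 250 bases before each start, matches were sought on both strands to a GATA motif (AGATAA or TGATAA or AGATAG or TGATAG), a SOX motif (ACAATG or ACAAAG), a GC box (GGGCGG) and a TATA motif (TATAAA). In the windows of the members no match overlapped a match to another of the motifs. For 5 members 1 start is given here, 5′ to 3′ on the gene's strand, with every match in capitals and with bases that lie inside the annotated gene left off.
Dab2, chr15:6299539-6299787, plus strand: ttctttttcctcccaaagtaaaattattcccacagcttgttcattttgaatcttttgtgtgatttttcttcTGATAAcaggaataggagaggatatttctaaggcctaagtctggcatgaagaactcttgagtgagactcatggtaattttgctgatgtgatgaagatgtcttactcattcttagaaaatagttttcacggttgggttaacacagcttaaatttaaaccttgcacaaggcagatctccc
Krt18, chr15:102027966-102028215, plus strand: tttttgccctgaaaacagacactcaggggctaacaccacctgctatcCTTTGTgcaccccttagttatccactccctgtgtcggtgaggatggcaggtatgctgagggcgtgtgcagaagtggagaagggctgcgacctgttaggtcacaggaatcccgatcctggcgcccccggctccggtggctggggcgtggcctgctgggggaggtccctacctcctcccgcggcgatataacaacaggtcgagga
Apoe, chr7:19699189-19699438, minus strand: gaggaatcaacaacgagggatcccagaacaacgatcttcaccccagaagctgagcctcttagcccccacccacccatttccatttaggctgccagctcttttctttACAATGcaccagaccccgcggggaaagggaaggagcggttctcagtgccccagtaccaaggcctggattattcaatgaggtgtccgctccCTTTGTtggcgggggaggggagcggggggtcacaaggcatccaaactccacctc
Amn, chr12:111270846-111271095, plus strand: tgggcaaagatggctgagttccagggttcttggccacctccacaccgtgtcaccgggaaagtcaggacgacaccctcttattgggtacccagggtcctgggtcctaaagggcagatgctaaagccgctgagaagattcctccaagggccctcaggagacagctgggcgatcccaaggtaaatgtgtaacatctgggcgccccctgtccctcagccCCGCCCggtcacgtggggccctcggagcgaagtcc
Col4a1, chr8:11312890-11313076, minus strand: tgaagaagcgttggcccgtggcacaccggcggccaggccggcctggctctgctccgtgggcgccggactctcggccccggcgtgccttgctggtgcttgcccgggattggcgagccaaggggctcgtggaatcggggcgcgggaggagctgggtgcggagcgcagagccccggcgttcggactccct

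The upstream start of Dab2 had 1 GATA match, TGATAA, at positions -179 to -174 from the start, and the downstream start, on chr15:6386498-6386747, had none of the 4 motifs. Krt18 had 1 SOX match, read as CTTTGT on this strand, at -203 to -198. Apoe had 2 SOX matches at its farthest upstream start, ACAATG at -144 to -139 and CTTTGT at -54 to -49. Of its other 2 starts, one had a GATA match, AGATAG, at -29 to -24, and the other had 2 TATA matches, on opposite strands, that overlap. Amn had 1 GC box, read as CCGCCC on this strand, at -35 to -30, and neither a GATA nor a SOX match. Col4a1 had no match to any of the 4 motifs, and its window was 74.4% G and C, where the median over all 32851 promoter windows was 52.4%. Of all those windows, 26.5% held the GATA motif, 25.2% the SOX motif, 32.7% the GC box and 12.4% the TATA motif. A match is a string of letters and no evidence of binding, and the absence of one says only that these letters are not in the window.

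Levels are given as the scaled log2 intensity, from which the log2 of the array's own 75th percentile was subtracted, so that a value of 0 is the brightness at that percentile. That percentile ranged from 184 to 457 intensity units. The scanner flagged 66.0% to 83.1% of the spots per array as well above background. No spot was saturated. A first slide held replicates 1 and 2 of either line, and a second slide held both arrays of replicate 3. The arrays of replicate 2 stood apart from their lines. Over the 34029 probes that every array measured well above background, the distance from fSOX2-Tg replicate 2, as the SD of the log2 differences, averaged 0.722 to its own line and 0.624 to the fS248A-Tg arrays. From fS248A-Tg replicate 2 it averaged 0.700 to its own line and 0.595 to the fSOX2-Tg arrays. For the other 4 arrays the own line was nearer. Each member is therefore also given with replicate 2 of both lines left out. The RNA came from whole cultures, in which a change in the number of cells of one type cannot be told apart from a change in RNA per cell.

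Col4a1 was higher on each fS248A-Tg array than on any fSOX2-Tg array. On fSOX2-Tg arrays 1, 2 and 3 its scaled log2 intensity was 1.12, 0.93 and 0.24. On fS248A-Tg arrays 1, 2 and 3 it was 2.94, 2.51 and 2.44. The lowest mutant array stood well clear of the highest wild type array, and the gene was well above background on all 6. The means were 0.77 ± 0.47 (SD, n = 3) and 2.63 ± 0.27 (SD, n = 3), a difference of 1.86 on the log2 scale, or 3.64-fold. Between arrays of equal replicate number it was 1.81, 1.58 and 2.20, with a standard deviation of 0.31. Without replicate 2 it was 2.01.

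Dab2, the endocytic adaptor, was near background in fSOX2-Tg cells and above it in fS248A-Tg cells. Its scaled log2 intensity was -2.41, -1.54 and -2.99 on fSOX2-Tg arrays 1, 2 and 3, of which replicate 2 alone was well above background. On the fS248A-Tg arrays it was -0.37, -0.65 and -1.08, well above background on all 3. The lines did not overlap. Each array also carried 20 negative control sequences that match no transcript, and the brightest of them gives a measure of nonspecific signal. On each array 1 to 3 of the 20 were themselves flagged well above background, with 3 on fSOX2-Tg replicate 2, so the flag alone does not establish expression. Dab2 lay below the brightest control on all 3 fSOX2-Tg arrays and above it on all 3 fS248A-Tg arrays, by 0.71, 0.41 and 1.18 on the log2 scale. On fS248A-Tg replicate 3 that control was dimmer, at -2.26, than on the other 5 arrays, where it ran from -1.08 to -0.81, and Dab2 on that array was at about the lowest of those levels. The difference between the lines was 1.61, with values of 2.04, 0.89 and 1.90 in the pairs and a standard deviation of 0.63. The smallest of these came from replicate 2, whose fSOX2-Tg array had the largest share of spots above background, and without replicate 2 the difference was 1.97. The normexp run modeled the background instead of subtracting it, used the median spot signal and added an offset of 50. The difference between the lines was then 0.91, so its size turned on these steps, which were not tested apart.

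Amn, the partner of cubilin in apical endocytosis, was dim in both lines. Its scaled log2 intensity was -3.18, -2.40 and -2.97 on fSOX2-Tg arrays 1, 2 and 3 and -1.30, -1.03 and -2.35 on the fS248A-Tg arrays. The lines did not overlap, but fS248A-Tg replicate 3 was only just above fSOX2-Tg replicate 2. As for Dab2, replicate 2 was the single fSOX2-Tg array well above background, against 3 of 3 fS248A-Tg arrays. Even in fS248A-Tg cells Amn differed little from the brightest negative control, by -0.23, 0.02 and -0.09 on the log2 scale. The last of these rests on the dim control of fS248A-Tg replicate 3. The difference between the lines was 1.29, with 1.88, 1.36 and 0.62 in the pairs and a standard deviation of 0.63, and without replicate 2 it was 1.25. With normexp it was 0.54 and the replicate 3 pair differed by -0.05, so that the size of the difference, and in 1 pair its direction, turned on the treatment of background.

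Krt18, a keratin of simple epithelia, was higher in the mutant line in 3 of 3 pairs, but the lines overlapped. Its scaled log2 intensity was 1.20, 0.98 and 2.04 on fSOX2-Tg arrays 1, 2 and 3 and 1.92, 2.33 and 3.17 on the fS248A-Tg arrays. Replicate 3 of fSOX2-Tg exceeded replicate 1 of fS248A-Tg, and replicate 3 was the highest array of each line. The difference between the line means was 1.07, or 2.09-fold, with 0.72, 1.35 and 1.12 in the pairs and a standard deviation of 0.32. It was 1.39 without fSOX2-Tg replicate 3 and 0.72 without fS248A-Tg replicate 3. Without replicate 2 of both lines it was 0.92.

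Foxq1, the forkhead factor, did not overlap between the lines. Its scaled log2 intensity was -0.01, 0.09 and -1.29 on fSOX2-Tg arrays 1, 2 and 3 and 1.85, 1.10 and 0.45 on the fS248A-Tg arrays. All 6 arrays were well above background, although on fSOX2-Tg replicate 3 its difference from the brightest negative control was -0.28. Replicate 3 was the lowest array of each line. The difference between the lines was 1.54, or 2.91-fold, with 1.86, 1.01 and 1.75 in the pairs and a standard deviation of 0.47. Without replicate 2 it was 1.81, and with normexp 1.22.

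Apoe, the lipid carrier, was the member that was lower in fS248A-Tg cells, and it was so in 2 of 3 pairs. Its scaled log2 intensity was 9.11, 8.18 and 9.63 on fSOX2-Tg arrays 1, 2 and 3 and 8.12, 8.24 and 8.25 on the fS248A-Tg arrays. As scaled here the mutant arrays lay close together, with a standard deviation of 0.07 against 0.73 in fSOX2-Tg. On that scale fSOX2-Tg replicate 2 fell among the mutant arrays and the other 2 wild type arrays above them. Both features turned on the scaling. In the deposited log2 table the standard deviations were 0.18 in fS248A-Tg and 0.28 in fSOX2-Tg. There fSOX2-Tg replicate 2, at 16.86, was just above the highest mutant array, at 16.80. The difference between the line means was -0.77, with -0.99, 0.05 and -1.37 in the pairs and a standard deviation of 0.74. Without replicate 2 it was -1.18. The direction of the replicate 2 pair turned on the scaling. The unscaled intensity was 132847 in fSOX2-Tg and 95368 in fS248A-Tg, while the 75th percentile of these arrays was 457 and 316. In the deposited log2 table the difference of that pair was -0.41 and the gene was lower in 3 of 3 pairs, by a mean difference of -0.59.

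**Figure D1:**
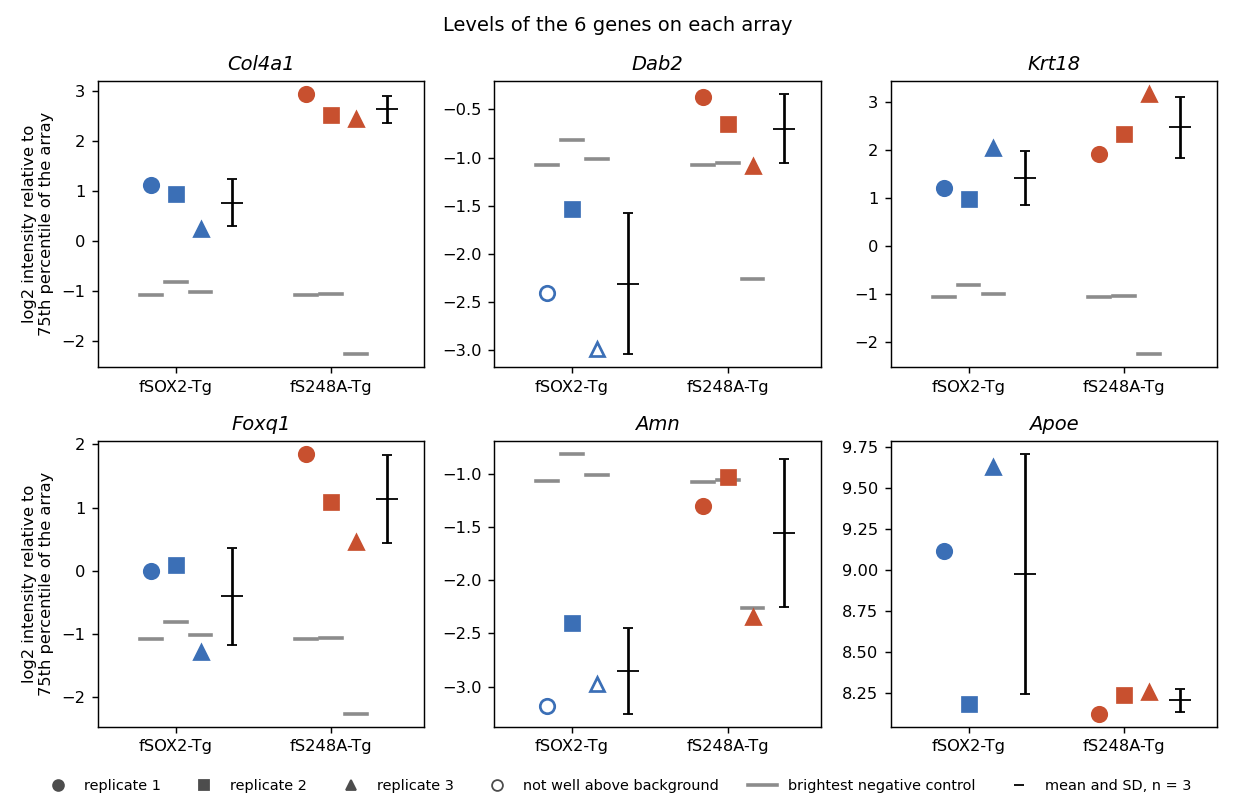
Scaled log2 intensity of each gene, with the 75th percentile of its array at 0 (y axis), on the 3 fSOX2-Tg and 3 fS248A-Tg arrays (x axis), with the mean and SD beside them. Open symbols mark arrays on which the gene was not well above background, and gray bars the brightest negative control of the array (outside the range shown for Apoe). On this scale Col4a1, Dab2, Foxq1 and Amn did not overlap between the lines, Krt18 and Apoe did.

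Of the 6 members, 4 were higher on every fS248A-Tg array than on every fSOX2-Tg array, and 4.65% of all probes tested had that order. Dab2 and Amn were among the 4. With normexp the lines overlapped for Amn, at -1.49 on fS248A-Tg replicate 3 and -1.44 on fSOX2-Tg replicate 3. None of the members was lower on every fS248A-Tg array, against 7.97% of the probes. In limma with the replicate number as a block, fitted to 19776 probes, 5 of the 6 members passed a threshold of 1.5-fold with an unadjusted p under 0.05, all of them higher in fS248A-Tg cells. The sixth was Apoe. Dab2 and Amn entered the counts of 4 and 5 only through the fS248A-Tg arrays, where they are high. When all 6 arrays had to be well above background 3 members passed. Over all probes 3.70% passed that threshold with a higher value in fS248A-Tg cells and 5.59% with a lower one. Since the same contrast chose the members, nothing is read from these counts. In the deposited table, whose values chose the members, the fold change of Apoe was 1.51, just past the 1.5 of the study's list, and that of each other member was larger. After Benjamini-Hochberg adjustment over the tested probes none passed, the smallest adjusted p from limma being 0.488, beside 1837 probes with an unadjusted p under 0.05. Nor is anything read from the median log2 difference, which was 1.41 over the 6 members and -0.096 over all probes tested.

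Which members kept their size depended on the processing, as the plot of differences under 4 processings shows. Col4a1 had log2 differences of 1.86 as scaled here, 1.80 after quantile normalization, 1.80 in the deposited table and 1.74 with normexp. Krt18 ranged from 0.99 to 1.07 and Foxq1 from 1.22 to 1.55. The dim genes Dab2 and Amn had larger differences after quantile normalization, 1.83 and 1.62, and smaller ones with normexp, 0.91 and 0.54. Apoe ranged from -0.77 to -0.59.

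**Figure D2:**
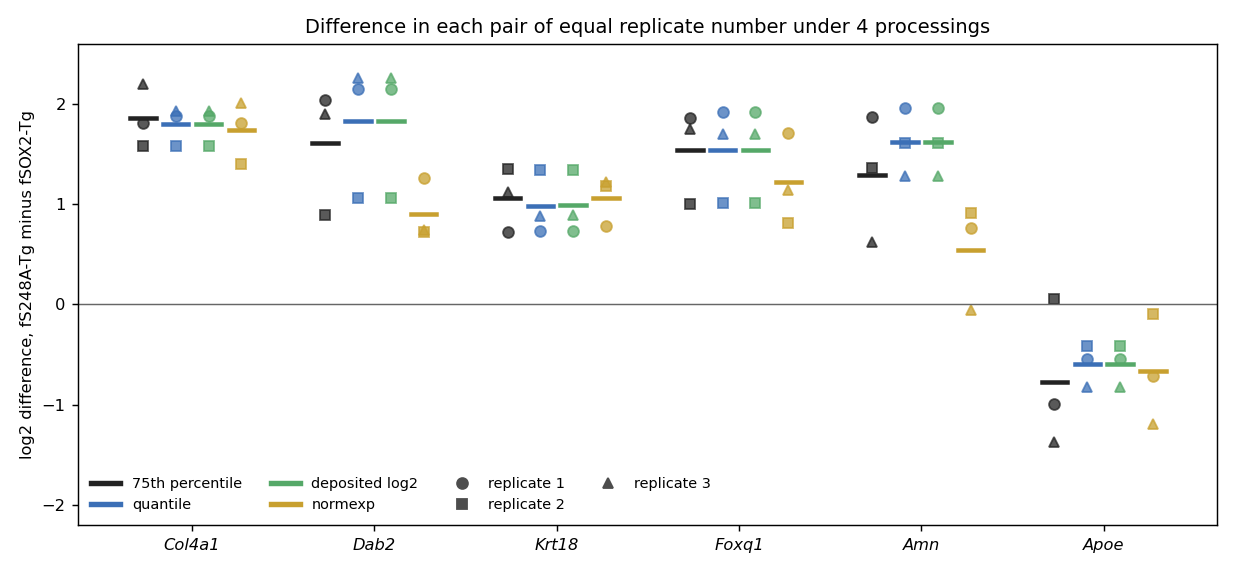
Log2 difference between fS248A-Tg and fSOX2-Tg arrays of equal replicate number (y axis) for each gene (x axis) under 4 processings. Symbols are the 3 pairs and bars their mean. The Dab2 and Amn bars drop with normexp, to 0.91 and 0.54, and the replicate 2 pair of Apoe lies above or below 0 depending on the processing.

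The spread of the members among arrays of one line was also described. It is not independent of the choice of genes, since a paired test favors genes whose deviations are alike on arrays of equal replicate number. After the mean of each line was subtracted, Krt18 ran opposite to Col4a1, Dab2 and Foxq1. As scaled here Apoe did so on fSOX2-Tg replicates 2 and 3, while its fS248A-Tg deviations were only -0.08, 0.03 and 0.05. Its pattern turned on the scaling. After quantile normalization Apoe was 8.49, 8.14 and 8.22 on fS248A-Tg arrays 1, 2 and 3, highest on replicate 1. Foxq1 was also highest there, at 1.91, 1.12 and 0.36. Replicate 3 exceeded the mean of replicates 1 and 2 by 0.96 in fSOX2-Tg and 1.04 in fS248A-Tg for Krt18. For Foxq1 the same comparison gave -1.33 and -1.02, for Dab2 -1.02 and -0.58, and for Col4a1 -0.79 and -0.29. Over all probes tested, most of them not chosen by such a test, the medians were 0.0083 and -0.018, 25.2% of the probes were higher on replicate 3 in both lines and 25.9% were lower in both. Replicate 3 was on a slide of its own, so that culture and slide cannot be told apart here. For Amn it gave -0.18 in fSOX2-Tg and -1.18 in fS248A-Tg, and for Apoe 0.98 and 0.07.

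**Figure D3:**
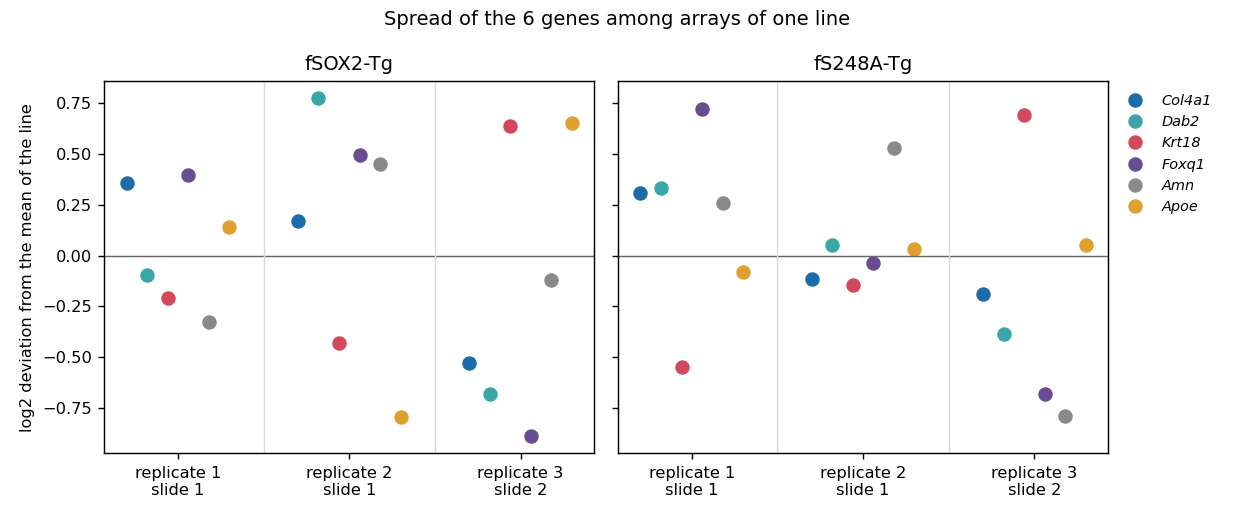
Log2 deviation of each gene from the mean of its line (y axis) on the 3 arrays of each line (x axis), with the slide of each replicate. On replicate 3 of both lines Krt18 lies above the line mean, by 0.64 and 0.69, and Col4a1, Dab2, Foxq1 and Amn lie below it.

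Correlations of these deviations over the 6 arrays describe the same pattern. They are given with no p, since 6 arrays in 2 lines leave few free values and every probe of an array shares its scaling. Of the 15 pairs of members, Col4a1 and Foxq1 had a Pearson r of 0.94, Dab2 and Foxq1 0.85, and Col4a1 and Dab2 0.71. Krt18 had an r of -0.98 with Foxq1, -0.87 with Dab2 and -0.84 with Col4a1, and one of 0.64 with Apoe. Apoe had an r of -0.93 with Dab2, and -0.59 and -0.66 with Col4a1 and Foxq1. The r values of Apoe were found with this scaling, and its deviations changed after quantile normalization. Amn followed the others less closely, with r between -0.71 with Krt18 and 0.67 with Dab2. With the difference between the lines left in, Krt18 correlated with Foxq1 at 0.17 over the same arrays, and Col4a1 with Foxq1 at 0.93.

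The named genes most like each member over the 6 arrays were found among 448 or 449 named probes well above background on every array. Nearly all of those were themselves chosen on the difference between the lines, which raises these correlations. Col4a1 was nearest to Glipr1 (r = 0.99), to P4ha2 (r = 0.98), a subunit of the hydroxylase that modifies collagen prolines, and to Vkorc1 (r = 0.97). Foxq1 was nearest to Gata6 (r = 0.98), Arid3a (r = 0.97) and Gata4 (r = 0.96). Dab2 was nearest to Efna1 (r = 0.98), an ephrin ligand, Nostrin (r = 0.97) and P2rx6 (r = 0.97). Krt18 was nearest to Uxt (r = 0.99), Timm17a (r = 0.99) and Tgm5 (r = 0.97), Amn to Actg2 (r = 0.99), Lass6 (r = 0.99) and Phactr4 (r = 0.96), and Apoe to Sephs2 (r = 0.96), Eras (r = 0.95) and Atp2a2 (r = 0.95). By the deviations within lines alone, which the paired test also favors where they agree between lines, the nearest were Arid3a (r = 0.98), Gm10324 (r = 0.96) and Glipr1 (r = 0.96) for Col4a1. For Foxq1 they were Glipr1 (r = 1.00), Zscan4e (r = 0.97) and Amigo2 (r = 0.95). For Dab2 they were AF067063 (r = 0.99), Gm20747 (r = 0.96) and Efna1 (r = 0.93), and for Krt18 Caprin1 (r = 0.99), Uxt (r = 0.99) and Dmc1 (r = 0.98). For Amn they were Actg2 (r = 0.97), Ramp1 (r = 0.97) and Mmp7 (r = 0.96), and for Apoe Hecw2 (r = 0.99), H1f0 (r = 0.95) and H2ac19 (r = 0.94). Glipr1 was near Col4a1 by both measures, Efna1 near Dab2, Uxt near Krt18 and Actg2 near Amn.

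Other genes of these pathways could be named only where the study lists them as changed. Neither their counts nor their medians are therefore independent evidence of any direction. Of 30 genes of extraembryonic and early endoderm, 10 could be named and 7 were bright enough for the fit, of which 4 passed the threshold of 1.5-fold and an unadjusted p under 0.05 with higher and 2 with lower values in fS248A-Tg cells. Those higher were Gata6, by 2.18 on the log2 scale, Gata4, by 1.32, Cldn6, a tight junction claudin, by 0.87, and Habp2, a secreted protease, by 0.81. Those lower were Fabp1, a fatty acid binding protein of liver and gut, with a difference of -1.33, and Lhx1, with -0.85. Both lower genes were dim and exceeded the brightest negative control on 1 array each, and Habp2 did so on 2. Fabp1 was well above background on 3 fSOX2-Tg and 2 fS248A-Tg arrays, so it entered the fit only through the line where it is high. Of the transcripts of mature secretory endoderm on the list, Alb and Apob could be named, and both were near background. Alb was well above it on 2 fSOX2-Tg arrays and no fS248A-Tg array and Apob on 1 and none. Afp, Ttr, Rbp4, Apoa1 and Apom, also on the list, could not be named, so their levels are not known here. Cubn, which encodes the receptor that amnionless carries, could not be named here.

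Col4a1 was the only collagen IV gene that could be named. Of 30 further genes of basement membranes and collagen handling, 8 could be named and 7 were in the fit, with 2 past the threshold higher and 3 lower in fS248A-Tg cells. P4ha2 was higher by 1.17 on the log2 scale, from a mean of 0.76 to 1.93, and Timp1, an inhibitor of matrix metalloproteinases, by 0.82, from 1.44 to 2.26. The difference was -1.62 for Col5a3, a fibrillar collagen chain, -1.07 for Mmp7, a metalloproteinase that did not exceed the brightest negative control on any array, and -0.92 for Loxl1, which crosslinks elastin and collagen. Thbs1 differed by 0.69 and Thsd4 by 0.30, and neither passed the threshold. The genes of the collagen matrix thus differed in either direction, and the median difference of the 7 was 0.30.

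Among 20 genes of keratins, cell polarity and junctions, 12 could be named and 10 were in the fit, with 3 past the threshold higher and 2 lower. Krt23, another keratin, was well above background on no fSOX2-Tg array and on 3 of 3 fS248A-Tg arrays, so that no fold is given. It is among the 3 counted as higher, although it entered the fit only through the fS248A-Tg arrays, where it is high. Tgm1, a transglutaminase of keratinized epithelia, was higher by 1.04 on the log2 scale and Cldn6 by 0.87. Of these, Tgm1 was dim and exceeded the brightest negative control on 1 array. Llgl2, a basolateral polarity gene, differed by -1.34, with -0.46 in the replicate 2 pair and -1.92 and -1.62 in those of replicates 1 and 3. Prr15l differed by -1.17. The obligate partner of Krt18 in simple epithelia, Krt8, could not be named here.

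Among 20 genes of endocytic receptors and lipoprotein handling, the setting of Dab2, Amn and Apoe, 9 could be named and 8 were in the fit, with 2 past the threshold higher and 5 lower. The median difference of the 8 was -1.01. All 8 were named through the study's list of genes changed on these same arrays, so no shared direction is read from it. Lrp8, a receptor for apolipoprotein E, differed by -1.19 on the log2 scale. Lpl, the lipoprotein lipase, differed by -1.06, from a mean of 3.03 to 1.96. The differences were -0.95 for Abcg1, a cholesterol exporter, -1.15 for Lamp2, a lysosomal membrane protein, and -1.65 for Scara5, a scavenger receptor. Pla2g7, which encodes the lipoprotein-associated phospholipase, was higher by 1.53. Lrp1, another receptor for apolipoprotein E, was well above background on no fSOX2-Tg array and on 3 of 3 fS248A-Tg arrays, so that no fold is given. It is among the 2 counted as higher, although it entered the fit only through the fS248A-Tg arrays, where it is high. Lrp1 and Lrp8 did not exceed the brightest negative control on any array. The lower value of Apoe thus stood beside lower values for 5 of the 8 and higher values of its fellow members Dab2 and Amn.

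**Figure D4:**
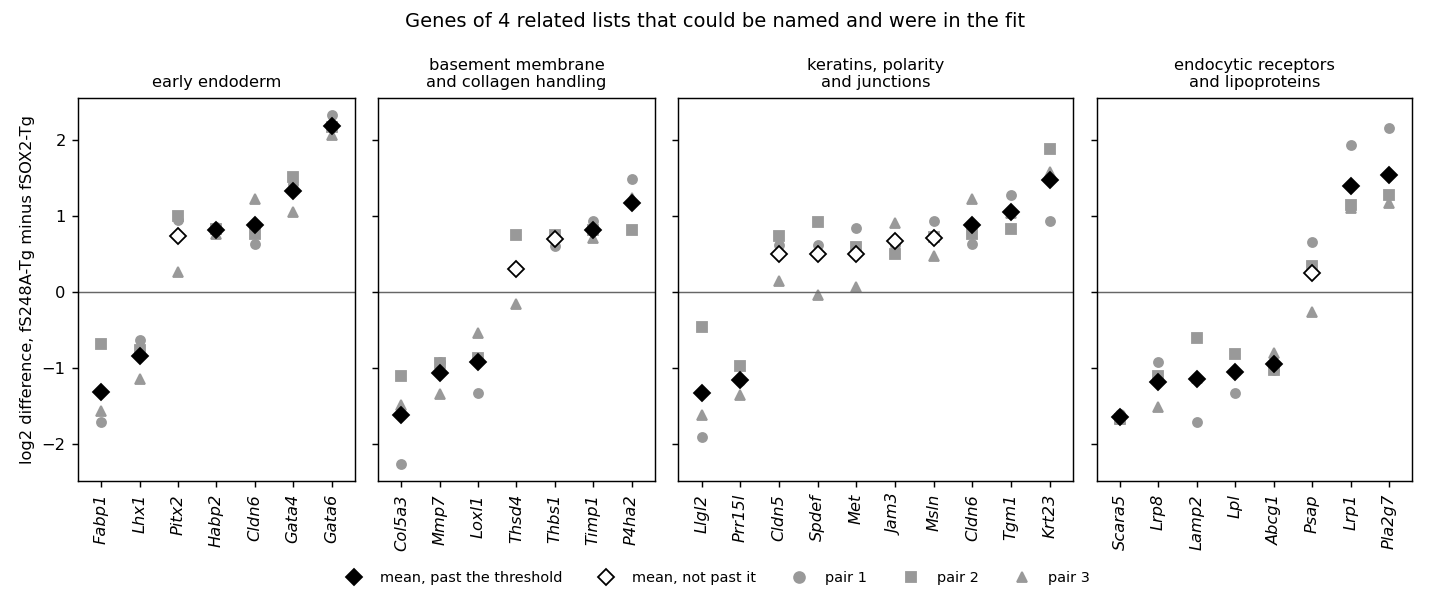
Log2 difference between fS248A-Tg and fSOX2-Tg cells (y axis) for the genes of 4 lists that could be named and were in the fit (x axis). Gray symbols are the 3 pairs, and filled diamonds are means that changed 1.5-fold or more with an unadjusted p under 0.05. Gata6 and Gata4 lead the first list, at 2.18 and 1.32, and 5 of the 8 genes of the last lie below 0. Krt23 and Lrp1 were well above background on none of the 3 fSOX2-Tg arrays, so the sizes drawn for them are uncertain.

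Markers of several cell types were set beside these genes. Of 8 markers of primitive endoderm, 4 could be named, Gata4, Gata6 and the members Dab2 and Col4a1. All 4 were named through the study's list of changed genes, so that their higher values in the mutant line are no independent evidence. The summed intensity of Gata4 and Gata6, relative to the 75th percentile, ran from 4.30 to 10.4 on the fSOX2-Tg arrays and from 14.1 to 44.8 on the fS248A-Tg arrays, and both genes were well above background on all 6. The other 4 markers, Sox17, Sox7, Pdgfra and Foxa2, could not be named. Of 9 markers of fibroblasts or feeder cells, 6 could be named, all well above background on every array. Their summed intensity ran from 13.6 to 19.5 on the fSOX2-Tg arrays and from 17.0 to 21.0 on the fS248A-Tg arrays, which overlapped, and single markers went either way, with Tagln higher by 2.26 and Col5a3 differing by -1.62. Two-cell-like, ectoderm and mesoderm markers that could be named and fitted numbered 3, 2 and 1. Of these, 2, 1 and 1 were lower past the threshold, as were 5.59% of all probes, and none was higher. Tcstv1 and Tcstv3 were named by accession, and Zscan4e, Rax, Gbx1 and Mesp2 through the study's list of changed genes. The direction of the listed genes is therefore no independent evidence. Of 12 mESC markers, Eras and Myc alone could be named, and their summed intensity ran from 149 to 317 on the fSOX2-Tg arrays and from 98.9 to 140 on the fS248A-Tg arrays, with no overlap. Myc differed by 0.75 and Eras by -0.85 on the log2 scale, and neither passed the threshold. Eras was bright in both lines, with a mean of 7.79 in fSOX2-Tg and 6.94 in fS248A-Tg cells. Myc had means of -0.32 and 0.43, so the sum of these markers is nearly all Eras and does not show a joint fall. The defining markers Pou5f1, Nanog and Zfp42 could not be looked up. The part of any of these cell types in the differences of the 6 genes was not tested.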

How the data were processed

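Total RNA of 6 mESC cultures was labeled with Cy3 by random priming after removal of ribosomal RNA. The authors' service provider read the arrays with Feature Extraction 11.0.1.1. The authors deposited the background-subtracted intensity of each spot, not normalized between arrays, and a table of log2 values whose normalization is not stated. After quantile normalization of the intensities, the members differed between the lines by nearly the same amounts as in that table.

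Labels gave the line and replicate of each array. The log2 of an array's 75th percentile was subtracted from the log2 intensity of each spot, and control and outlier spots (49 to 102 per array) were left out. Each member had 1 spot, none an outlier. Where a probe sits in its transcript is not given in the sources used here. The fit was limma 3.58.1 in R 4.3.3 on 19776 probes of the deposited table well above background on all 3 arrays of a line, with a block for replicate number, after the paired test of the study. It was tested on simulated data. Probes have no gene names in the files. Names came from the study's list of changed genes, which also holds the authors' p-values and fold changes (used only as a key, and not printed), and from 116 RefSeq accessions, in all for 3.09% of the deposited table. Normexp used the median spot signal with an offset of 50, since the mean signal is not in the files. The members, gene lists and rules for naming genes were chosen with earlier results of these data known. Genes were named if they were members, belonged to a list, or were among the 3 most correlated with a member by either measure. Cultures are labeled as biological replicates, and the number of arrays limits the precision.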

Additional observations from a re-analysis of the deposited data

How the results depend on the processing

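For the 6 genes, 68 of 72 log2 differences under an alternative moved by less than the standard deviation of the 3 pairs, and none changed sign. The 4 that moved further were Dab2 (0.91) and Amn (0.54) with normexp and Krt18 without replicate 3 of either line (1.39 and 0.72). The count of 68 overstates how stable the differences are. Leaving out a replicate number of both lines cannot shift a mean of 3 pairs by as much as their standard deviation. Quantile normalization also nearly repeats the deposited table. For Apoe the standard deviation, 0.74, was about as large as its difference of -0.77. Without fSOX2-Tg replicate 3 Apoe differed by -0.44, and without fSOX2-Tg replicate 2 by -1.17. No second probe of a member could be named, so that alternative was not run.

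At 1.5-fold with an unadjusted p under 0.05, limma called 732 probes higher and 1105 lower in fS248A-Tg cells, beside 831 and 1131 with no replicate block. Deviations of equal replicate numbers from their line means correlated at 0.23, -0.24 and -0.0034, so the numbers do not by themselves pair the cultures. Quantile normalization turned the split to 941 higher and 812 lower. The paired t-test of the methods gave 163 and 391, and 320 and 344 on the deposited log2 values, where all 23949 probes were tested. With a replicate number or 1 array left out, higher probes ranged from 356 to 2553 and lower ones from 421 to 3361. The highest counts were without replicate 2 of both lines. The causes were not tested.

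Of the 6 genes, 5 passed that threshold, and 3 when probes had to be well above background on all 6 arrays, which leaves Dab2 and Amn untested. With arrays left out, 3 to 6 passed. Without replicate 1 of both lines Krt18 and Amn did not, and without replicate 2 all 6 did. Krt18 also did not without replicate 3 of both lines, fSOX2-Tg replicate 1 or 2, or fS248A-Tg replicate 3, and Apoe did without fSOX2-Tg replicate 2. With normexp Apoe passed and Amn did not, and by the paired t-test Amn did not. The block changed none of these 6 calls. Signal over background limits Dab2 and Amn.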
